A study of Homo sapiens with 36 samples.

Results

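The 8 liver-enriched transcription factors HNF4A, FOXA1, FOXA2, FOXA3, CEBPA, ONECUT1, PROX1 and NR5A2 were followed across all libraries of an RNA-seq study of insulin action in HepG2 cells. The 8 genes were taken from the 57771 rows of the count table by name, through their Ensembl identifiers. No rule on their measured values was used, but earlier results of these data were known when they were chosen. The cells were HepG2-IGF1R-KO, derived from the human hepatoma line HepG2 by targeting IGF1R, which encodes a close relative of the insulin receptor. Every group carried that change, and no parental HepG2 group was used here. Cells grown in DMEM with 10% serum were left untreated in normal medium, received 3 nM human insulin for 18 h in normal medium, were kept for 72 h in insulin-resistant medium (20 mM glucose, oleic, linoleic and palmitic acids at 0.5 mM, and insulin at 1 nM) without later stimulation, or received 3 nM insulin after that exposure. The titles give 72 h for all 4 groups, those in normal medium included. Each of the 4 groups had 9 libraries, which the labels call biological replicates. The labels do not say whether the 1 nM insulin was removed from the unstimulated resistant cells. They also do not say whether the line was a single clone. The design asked how the transcriptome of these cells responds to insulin in each medium.

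These factors form the regulatory network that sets and holds hepatocyte identity, and several of them bind one another's promoters as well as the genes of plasma proteins, bile acid enzymes and gluconeogenic enzymes. HNF4A is a nuclear receptor at the centre of that network, and the FOXA proteins are forkhead pioneer factors that open liver enhancers. CEBPA is a basic leucine zipper factor of metabolic hepatocyte genes, ONECUT1 (HNF6) a cut-homeobox factor of hepatoblasts and biliary cells, PROX1 a homeobox factor of hepatoblasts and lymphatic endothelium, and NR5A2 (LRH-1) an orphan nuclear receptor of bile acid and cholesterol genes. Insulin also acts on forkhead proteins through their place in the cell, FOXO1 being the known case, and transcript counts do not measure that step.

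The libraries held 26.6M to 116.8M counts, with a median of 64.6M. A set of 6 libraries stood apart from the other 30: stimulated normal replicates 4, 5 and 6, and untreated resistant replicates 1, 2 and 3. COL1A1, the main chain of type I collagen, was at 0.784 to 1.70 CPM (counts scaled to a common library total) in those 6 and at 8071 to 31870 CPM in the other 30. VIM lay between 0 and 0.0788 CPM there and between 1459 and 3875 CPM elsewhere, and TWIST1 at 0 against 9.03 to 52.9 CPM. Over the stromal marker list the summed level was 185 to 236 CPM in the 6, against 24052 to 79472 CPM in the 30, while secreted hepatocyte proteins summed to 32399 to 36585 CPM and to 11982 to 27572 CPM. Of the mesenchymal transcription factors, TWIST1, TCF21, FOXF1, FOXC2, MEOX2 and TBX5 were at 0 in all 6. The markers of the 6 libraries were those of a hepatocyte line, as labelled, whereas the 30 held hepatocyte and stromal markers together. The leukocyte list summed to 343 to 2443 CPM over all 36, with 5 or 6 of its 8 genes at a median under 1 CPM in each group, and its defining marker PTPRC was at 0 to 0.433 CPM. The lymphatic list summed to 633 to 2100 CPM, with 4 or 5 of its 6 genes at a median under 1 CPM, and its defining marker FLT4 was at 0 to 0.209 CPM. LYVE1, a hyaluronan receptor of that list, was at 0.117 to 0.588 CPM in normal and 1.91 to 5.26 CPM in resistant medium, a difference of 3.92 ± 0.19 on the log2 scale in untreated cells (edgeR adjusted p = 1.27e-16). The cholangiocyte list summed to 861 to 1031 CPM in untreated normal and 809 to 1328 CPM in stimulated normal cells, and to 1276 to 1930 and 1057 to 1438 CPM in the same order in resistant medium. The part of these markers in the results on medium was not tested. IGF1R, the targeted gene, was counted at 77.8 to 134 CPM in every library, and transcript counts do not check a lesion whose position the labels do not give. In bulk RNA, fewer cells of a type and less RNA per cell cannot be told apart.

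Promoter windows from RefSeq (GRCh38.p14, 250 bases upstream of an annotated start, 5′ to 3′ on the gene's strand) were at hand for 6 of the 8 genes; FOXA2 and PROX1 were not matched. The 3 windows shown here were chosen because they carry core motifs of the network itself, which are in capitals. Motifs were searched as exact letters on both strands, and none of the motifs shown here overlapped another. The upstream HNF4A start at chr20:44355449-44355698 (+) held the ONECUT core ATTGATT on the reverse strand, 34 bases before the start. FOXA1 at chr14:37595250-37595499 (-) held a forkhead core, TGTTTGC on the reverse strand, 235 bases before its start. NR5A2 at chr1:200042341-200042590 (+) held the HNF4 core motif CAAAGTCC and the forkhead core TGTTTAC, both on the reverse strand, 148 and 105 bases before the start.
HNF4A, upstream start: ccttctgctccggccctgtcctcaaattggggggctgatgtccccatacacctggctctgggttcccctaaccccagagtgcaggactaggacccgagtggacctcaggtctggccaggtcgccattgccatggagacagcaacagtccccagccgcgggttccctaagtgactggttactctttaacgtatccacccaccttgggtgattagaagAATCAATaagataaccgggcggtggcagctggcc
FOXA1: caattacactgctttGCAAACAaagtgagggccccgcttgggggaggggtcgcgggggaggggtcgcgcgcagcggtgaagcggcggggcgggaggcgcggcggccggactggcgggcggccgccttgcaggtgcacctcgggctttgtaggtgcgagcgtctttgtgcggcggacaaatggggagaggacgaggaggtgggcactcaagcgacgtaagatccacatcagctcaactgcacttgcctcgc
NR5A2: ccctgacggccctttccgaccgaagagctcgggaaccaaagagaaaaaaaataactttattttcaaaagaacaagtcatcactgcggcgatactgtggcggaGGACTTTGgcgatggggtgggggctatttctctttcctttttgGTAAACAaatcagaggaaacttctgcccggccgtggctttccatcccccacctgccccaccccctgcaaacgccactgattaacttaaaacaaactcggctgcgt

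Among 35116 promoter windows of this length, ATTGATT occurred in 1.98%, TGTTTGC in 3.23%, TGTTTAC in 2.98% and CAAAGTCC in 1.02%. The C/EBP palindrome TTGCGCAA (0.131% of windows) and the NR5A motif CAAGGTCA (1.14%) were in 0 of the 8 windows of these genes. The TATA box TATAAA, present in 10.7% of windows, lay 30 bases before the starts of CEBPA and FOXA3. In the other NR5A2 window the same letters lay on the reverse strand, 201 bases before the start. These matches describe letters in a window and not binding, and the gene-level counts do not separate the 2 HNF4A starts.

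All 8 genes were expressed in every library, with HNF4A at 8683 to 32926 counts and ONECUT1, the sparsest, at 104 to 668 counts. For levels between genes, CPM scaled by the trimmed mean of M-values (TMM) was divided by the length of each gene's merged exons. In untreated cells in normal medium the median was 27.1 CPM per kb for HNF4A, 17.5 for CEBPA, 13.7 for FOXA2, 8.86 for PROX1, 6.72 for FOXA3 and 3.93 for FOXA1. ONECUT1 and NR5A2 were far lower, at 0.934 and 0.487 CPM per kb. The libraries of HNF4A (25.3 to 38.2) did not overlap those of CEBPA (15.8 to 24.8). CEBPA and FOXA2 (12.2 to 21.2) overlapped, as did PROX1 (6.74 to 11.3) and FOXA3 (5.83 to 10.8), so their order in that group is not beyond the spread. The order of the medians was the same in the other groups, except that FOXA2 (18.2 CPM per kb) preceded CEBPA (17.6) in untreated resistant cells, within overlapping ranges. Merged exons count every annotated transcript, so genes with many transcripts appear lower on this scale.

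**Figure D1:**
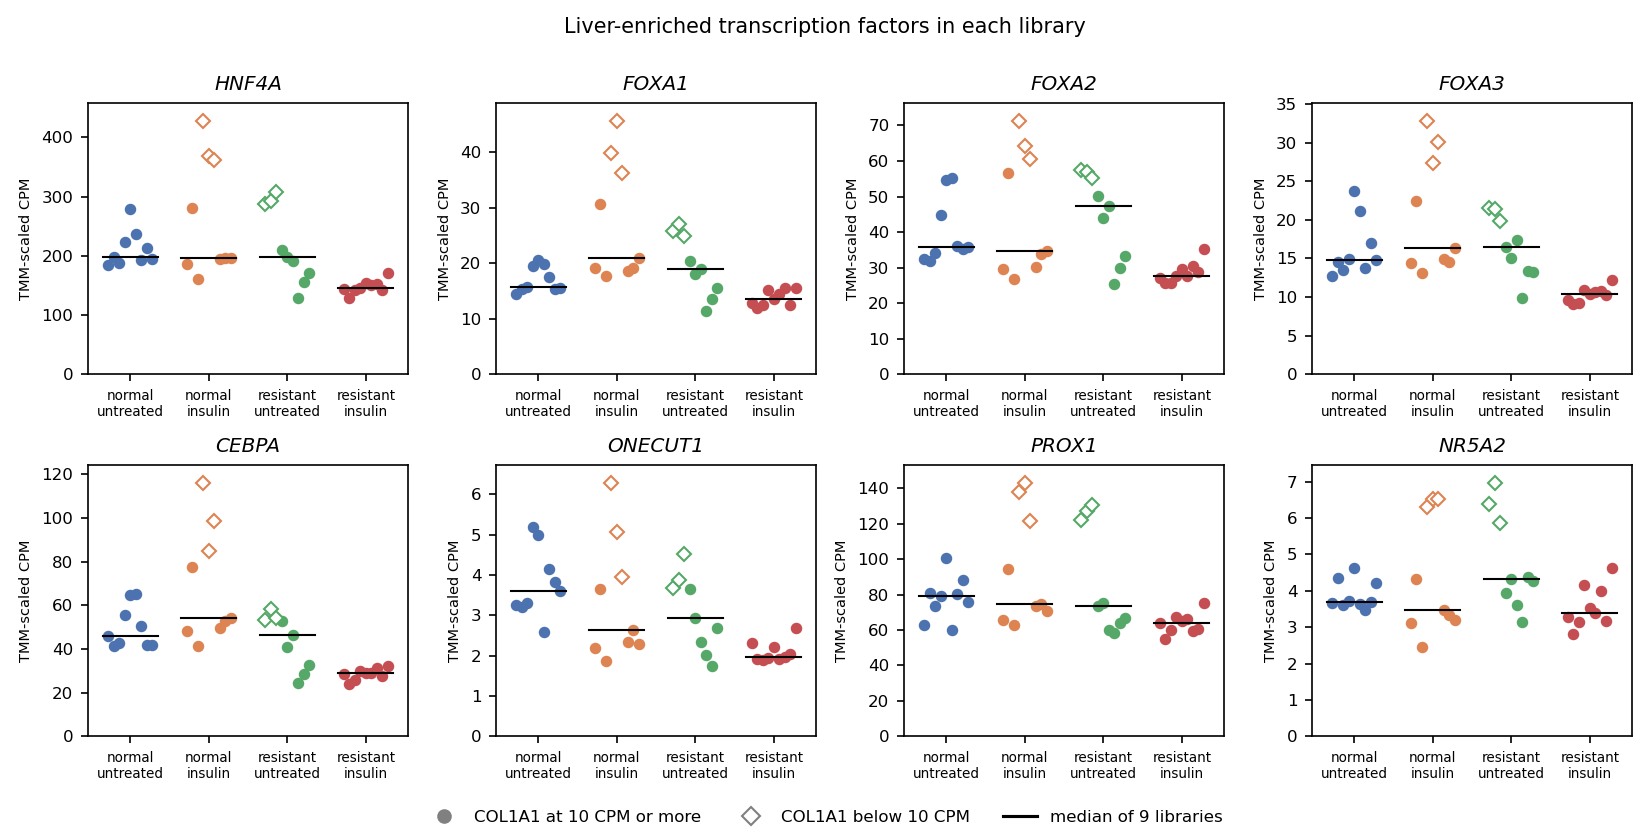
TMM-scaled CPM of each factor (vertical axis, linear, from 0) in each of the 9 libraries of the 4 groups, with a line at the median; open diamonds are the 6 libraries with COL1A1 below 10 CPM. The diamonds lie above the other libraries of their own group for all 8 genes, for HNF4A at 288 to 429 CPM against 128 to 281 CPM.

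HNF4A, the hub nuclear receptor, was at 185, 198 and 279 TMM-scaled CPM (lowest, median and highest) in untreated normal cells and at 162, 197 and 429 in insulin-stimulated normal cells. In insulin-resistant medium it was at 128, 197 and 309 without stimulation and at 129, 146 and 172 with it. The 3 medians near 197 hid a split within groups: the COL1A1-low libraries held 362 to 429 CPM among stimulated normal cells and 288 to 309 CPM among untreated resistant cells, above every other library of their groups.

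CEBPA was at 41.6, 46.1 and 65.3 TMM-scaled CPM in untreated normal cells and 41.4, 54.4 and 116 in stimulated normal cells. Without stimulation in resistant medium it was at 24.6, 46.4 and 58.1, and with it at 23.9, 28.8 and 32.0. All 9 stimulated resistant libraries were below all 9 stimulated normal libraries. FOXA1 followed the same layout, at 14.5, 15.6 and 20.5 in untreated normal cells, 17.8, 21.0 and 45.7 in stimulated normal cells, 11.4, 19.0 and 27.1 in untreated resistant cells and 11.9, 13.5 and 15.5 in stimulated resistant cells. FOXA3 ran from 9.15 to 12.1 CPM in stimulated resistant cells and from 13.1 to 32.9 CPM in stimulated normal cells, again with no overlap. These 3 separations also held among the libraries with COL1A1 at 10 CPM or more. How many of all genes separate in this way was not counted, here or for the ranges below. The separations are therefore not read as particular to these factors.

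FOXA2, PROX1, ONECUT1 and NR5A2 overlapped between every pair of groups. FOXA2 medians were 35.7, 34.7, 47.5 and 27.6 CPM in untreated normal, stimulated normal, untreated resistant and stimulated resistant cells. PROX1 medians were 79.1, 74.5, 73.4 and 64.0 CPM in the same order. ONECUT1 medians were 3.60, 2.64, 2.93 and 1.98 CPM, and NR5A2 medians 3.68, 3.48, 4.31 and 3.40 CPM. Over all groups the COL1A1-low libraries held PROX1 at 121 to 143 CPM and the other libraries at 54.8 to 101 CPM, and NR5A2 at 5.85 to 6.97 against 2.45 to 4.63 CPM, with no overlap for either gene. For FOXA2, ONECUT1, FOXA3, FOXA1 and CEBPA those ranges overlapped.

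**Figure D2:**
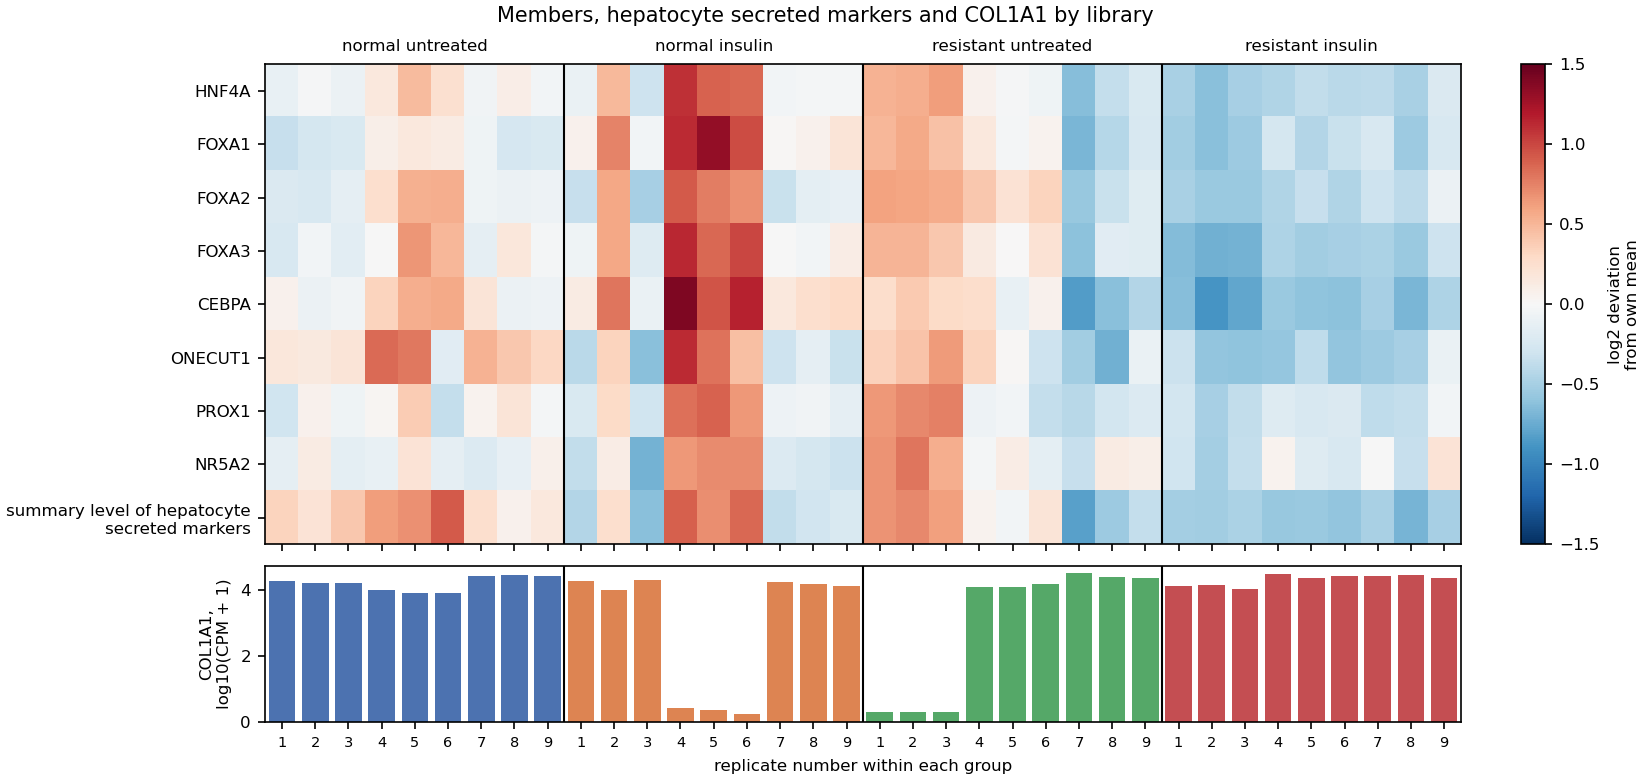
Log2 deviation of each factor's TMM-scaled CPM from its own mean over the 36 libraries (colour), with the summary level of secreted hepatocyte markers in the bottom row and COL1A1 as log10(CPM + 1) in the bars underneath; libraries are ordered by group and replicate number. The 6 libraries with almost no COL1A1 are red in all 8 rows and in the hepatocyte row.

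Because all 8 genes shifted together with the COL1A1-low libraries, each was also expressed as a percentage of the HNF4A count in the same library. This scale was added after the libraries had been examined. A shift that HNF4A and another gene share cancels on it, and what remains is the difference of each gene against HNF4A. Differences below are log2 fold changes ± SE from edgeR's quasi-likelihood test with a batch term, with p-values adjusted (Benjamini-Hochberg) across 17983 tested genes, or 18230 without the 6 libraries. The comparisons share groups, so they are not independent of one another. Within a group the replicates form 3 triplets by number (1 to 3, 4 to 6, 7 to 9) whose position codes are consecutive, and the libraries of a triplet lay close together in some cases and not in others: HNF4A was at 185 to 198 TMM-scaled CPM in untreated normal replicates 1 to 3 and at 162 to 281 in stimulated normal replicates 1 to 3. In the latter triplet replicate 2, at 281, was of the batch of 24 May, and replicates 1 and 3 were of that of 22 April. The p-values measure the spread between libraries, which may in part be technical.

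**Figure D3:**
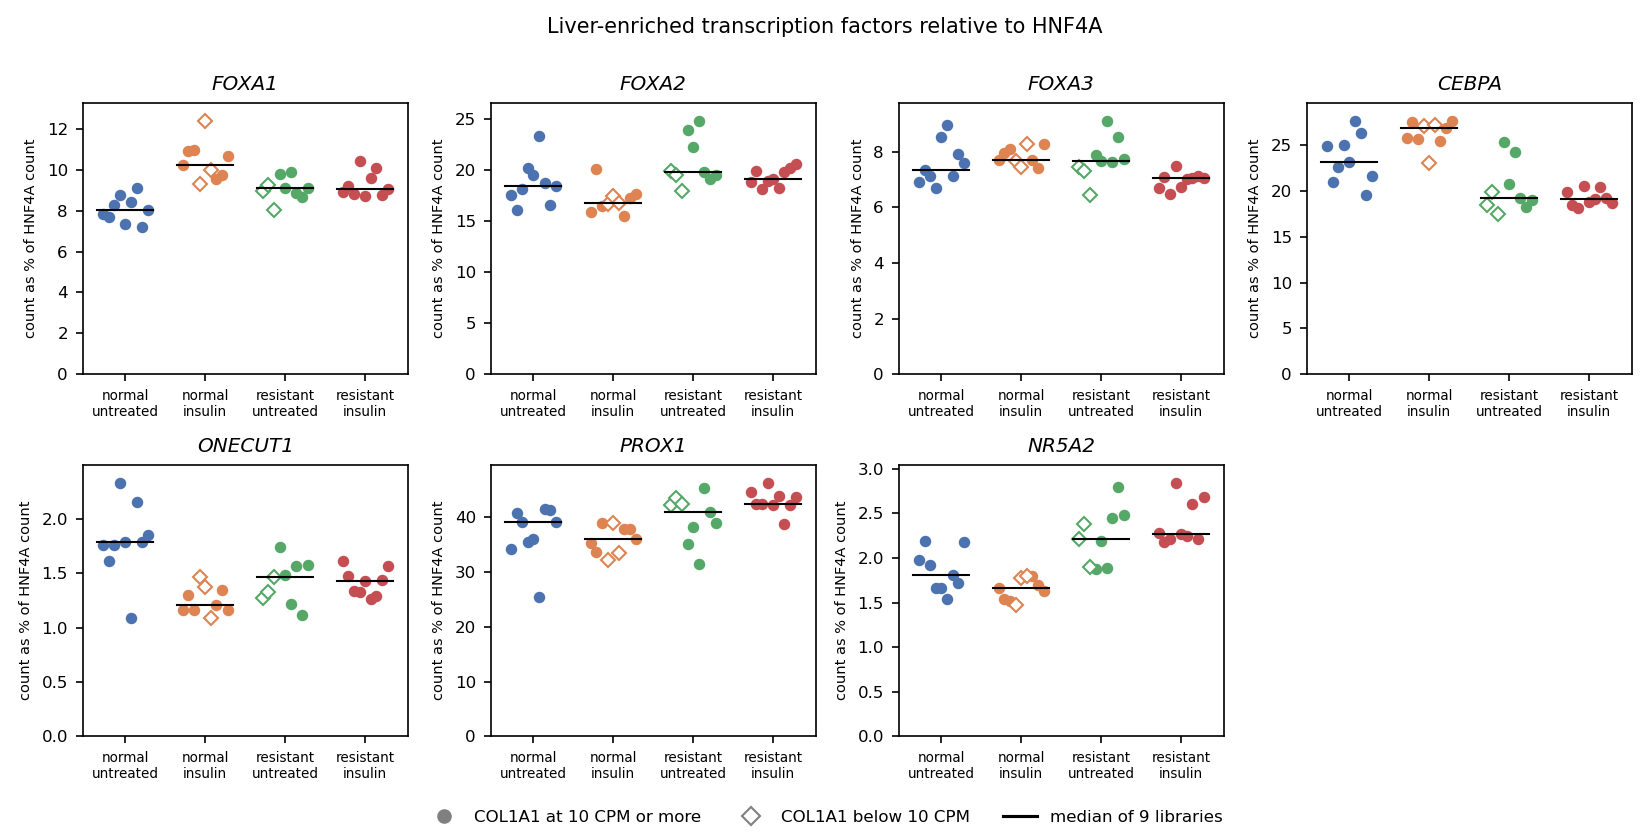
Count of each factor as a percentage of the HNF4A count in the same library (vertical axis, from 0) for the 4 groups of 9 libraries, with a line at the median and open diamonds for the 6 COL1A1-low libraries. On this scale the diamonds of most genes overlap the other libraries of their group, and FOXA1 separates stimulated (9.29 to 12.4%) from untreated (7.21 to 9.10%) cells in normal medium.

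With insulin in normal medium FOXA1 and CEBPA were higher in the fit over all 36 libraries, 2 of the 8 factors, and none was lower. FOXA1 was higher by 0.71 ± 0.17 (adjusted p = 0.000896, n = 9 and 9 in edgeR) and CEBPA by 0.51 ± 0.15 (adjusted p = 0.00959). Of all genes tested, 35.2% passed in this comparison and 24.9% passed as higher, so 2 of 8 is near the background. The median over the 8 factors was 0.30, against 0.03 over all genes. FOXA3 (0.38 ± 0.16, adjusted p = 0.0551), HNF4A (0.33 ± 0.16, adjusted p = 0.117), PROX1 (0.27), FOXA2 (0.23), NR5A2 (0.17) and ONECUT1 (-0.16) did not pass. Within the batches of 22 April, 11 April and 24 May the FOXA1 estimate was 0.50, 0.82 and 0.79, and the CEBPA estimate 0.17, 0.80 and 0.61. FOXA1 passed in all 36 fits that left out 1 library (0.45 to 0.77), whereas CEBPA passed in 14 of them and missed in 22, including each fit without a COL1A1-low stimulated library, where it was 0.30 to 0.32.

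Without the 6 COL1A1-low libraries the same comparison gave a different set. FOXA1 stayed higher at 0.26 ± 0.07 (adjusted p = 0.00519), CEBPA no longer passed (0.09, adjusted p = 0.401), and ONECUT1 (-0.65 ± 0.14, adjusted p = 0.000376), NR5A2 (-0.31 ± 0.11, adjusted p = 0.0303) and FOXA2 (-0.19, adjusted p = 0.0463) were lower. Those 4 of 8 compare with 33.4% of all genes. HNF4A was at -0.11 (adjusted p = 0.202). Stromal markers moved with this result: 3 of the 9 stimulated normal libraries and none of the untreated ones were COL1A1-low. Their part in the CEBPA call was not tested beyond leaving them out.

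Measured against HNF4A, FOXA1 and ONECUT1 moved in opposite directions with insulin. FOXA1 rose from 7.21, 8.04 and 9.10% of HNF4A (lowest, median and highest) to 9.29, 10.2 and 12.4%, with every stimulated library above every untreated one. ONECUT1 went from 1.09, 1.79 and 2.33% to 1.09, 1.21 and 1.47%, with overlapping ranges. CEBPA went from 19.5, 23.1 and 27.6% to 23.1, 26.8 and 27.7%. The fitted differences were 0.37 ± 0.06 for FOXA1 (edgeR adjusted p = 1.83e-05), -0.51 ± 0.11 for ONECUT1 (adjusted p = 0.000325) and 0.18 ± 0.06 for CEBPA (adjusted p = 0.034), 3 of 7 factors against 18.4% of all genes. FOXA2 (-0.10), FOXA3 (0.06), PROX1 (-0.07) and NR5A2 (-0.18) did not pass.

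The FOXA1 shift against HNF4A was as large without the COL1A1-low libraries (0.37) and stood at 0.38, 0.39 and 0.31 within the 3 batches, where it did not pass (adjusted p = 0.106, 0.186 and 0.231). Leaving out any 1 library gave 0.34 to 0.40. With each triplet summed to 1 sample it was 0.36, with an adjusted p of 0.153. ONECUT1 stood at -0.55 without the 6 libraries and at -0.58, -0.62 and -0.33 within batches, and the batch of 22 April alone passed (adjusted p = 0.037). CEBPA lost its pass in 8 of the 36 fits that left out 1 library, at 0.16 to 0.18: without untreated normal replicates 2, 4, 5, 8 or 9 or stimulated normal replicates 6, 8 or 9. Without the 6 libraries 4 of 7 factors passed against 31.8% of all genes, NR5A2 being the addition at -0.21 (adjusted p = 0.0486).

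With insulin-resistant medium and no stimulation, 0 of the 8 factors passed over all 36 libraries in edgeR or DESeq2, where 21.9% of genes passed in edgeR, and 0 of 8 stood at an unadjusted p under 0.05. Their estimates ran from -0.30 for ONECUT1 to 0.29 for NR5A2, with a median of 0.10 against -0.04 over all genes. When the COL1A1-low libraries, which are 3 of the 9 untreated resistant libraries, were left out, 7 of 8 were lower, against 26.7% of all genes called and 16.0% called lower. CEBPA fell by 0.57 ± 0.08 (edgeR adjusted p = 3.01e-06), HNF4A by 0.38 ± 0.06 (adjusted p = 4.87e-05) and ONECUT1 by 0.68 ± 0.14 (adjusted p = 0.000351). FOXA3 and PROX1 were each at -0.30, FOXA2 at -0.22 and FOXA1 at -0.19, all past the threshold, and NR5A2 at -0.04 (adjusted p = 0.846). Scaled instead to the secreted hepatocyte markers, 7 of 8 were higher, against 44.4% of all genes called higher, and ONECUT1 did not pass (0.05). That scaling placed the median gene at 0.45, above CEBPA (0.18) and ONECUT1, so the sign on it is relative to that shift.

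Against HNF4A, CEBPA and ONECUT1 were lower and NR5A2 higher in untreated resistant cells. CEBPA was at 19.5, 23.1 and 27.6% of HNF4A in normal medium and at 17.5, 19.2 and 25.3% in resistant medium, a difference of -0.22 ± 0.06 (edgeR adjusted p = 0.0105). NR5A2 was at 1.54, 1.80 and 2.19% and at 1.88, 2.21 and 2.79%, a difference of 0.28 ± 0.08 (adjusted p = 0.00828). ONECUT1 differed by -0.34 ± 0.10 (adjusted p = 0.0238), with ranges of 1.09 to 2.33% and 1.12 to 1.74%. These 3 of 7 compare with 14.1% of all genes. Ranges overlapped for all 3 genes. The ONECUT1 call was lost without normal replicates 4 or 7 or resistant replicates 6 or 8 of untreated cells (-0.31 to -0.28). Without the 6 libraries FOXA1 (0.18) and FOXA2 (0.16) joined the 3, in a fit in which 61.0% of all genes passed and the median gene moved by 0.36.

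In insulin-stimulated cells the resistant medium went with lower levels of 7 factors over all 36 libraries, NR5A2 being the exception at -0.36 ± 0.17 (adjusted p = 0.111). CEBPA differed most, at -1.21 ± 0.16 (edgeR adjusted p = 4.5e-07), followed by FOXA1 (-0.97 ± 0.18, adjusted p = 4.48e-05), FOXA3 (-0.97 ± 0.17, adjusted p = 1.84e-05) and HNF4A (-0.82 ± 0.17, adjusted p = 0.00032). ONECUT1 was at -0.61 (adjusted p = 0.0212), FOXA2 at -0.59 (adjusted p = 0.00591) and PROX1 at -0.59 (adjusted p = 0.0117). All genes gave 38.3% called and 26.3% called lower. The median of the 8 was -0.71 against -0.01 over all genes. Leaving out 1 library ended the ONECUT1 call in 23 of 36 fits (-0.69 to -0.41 over all 36), the PROX1 call without stimulated normal replicates 4, 5 or 6 or stimulated resistant replicates 2, 7 or 8 (-0.49 to -0.41), and the FOXA2 call without stimulated normal replicates 5 or 6 (-0.40 and -0.39).

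Without the COL1A1-low libraries, all of which were in the stimulated normal arm here, 4 of 8 stayed lower against 18.2% of genes called lower. They were CEBPA (-0.74 ± 0.08, edgeR adjusted p = 6.41e-08), FOXA3 (-0.49, adjusted p = 0.000121), FOXA1 (-0.47, adjusted p = 1.89e-05) and HNF4A (-0.34, adjusted p = 0.000335). FOXA2 (-0.12), ONECUT1 (-0.11), PROX1 (-0.12) and NR5A2 (0.14) did not pass. COL1A1 was still not level between the arms left. It was at 9747 to 20495 CPM in stimulated normal and at 10893 to 29169 CPM in stimulated resistant cells. The part of this remaining stromal difference in the 4 calls was not tested. CEBPA was at -0.93 within the batch of 22 April (adjusted p = 0.0718) and at -1.33 within that of 11 April (adjusted p = 0.00489), and the batch of 24 May held no stimulated resistant library.

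**Figure D4:**
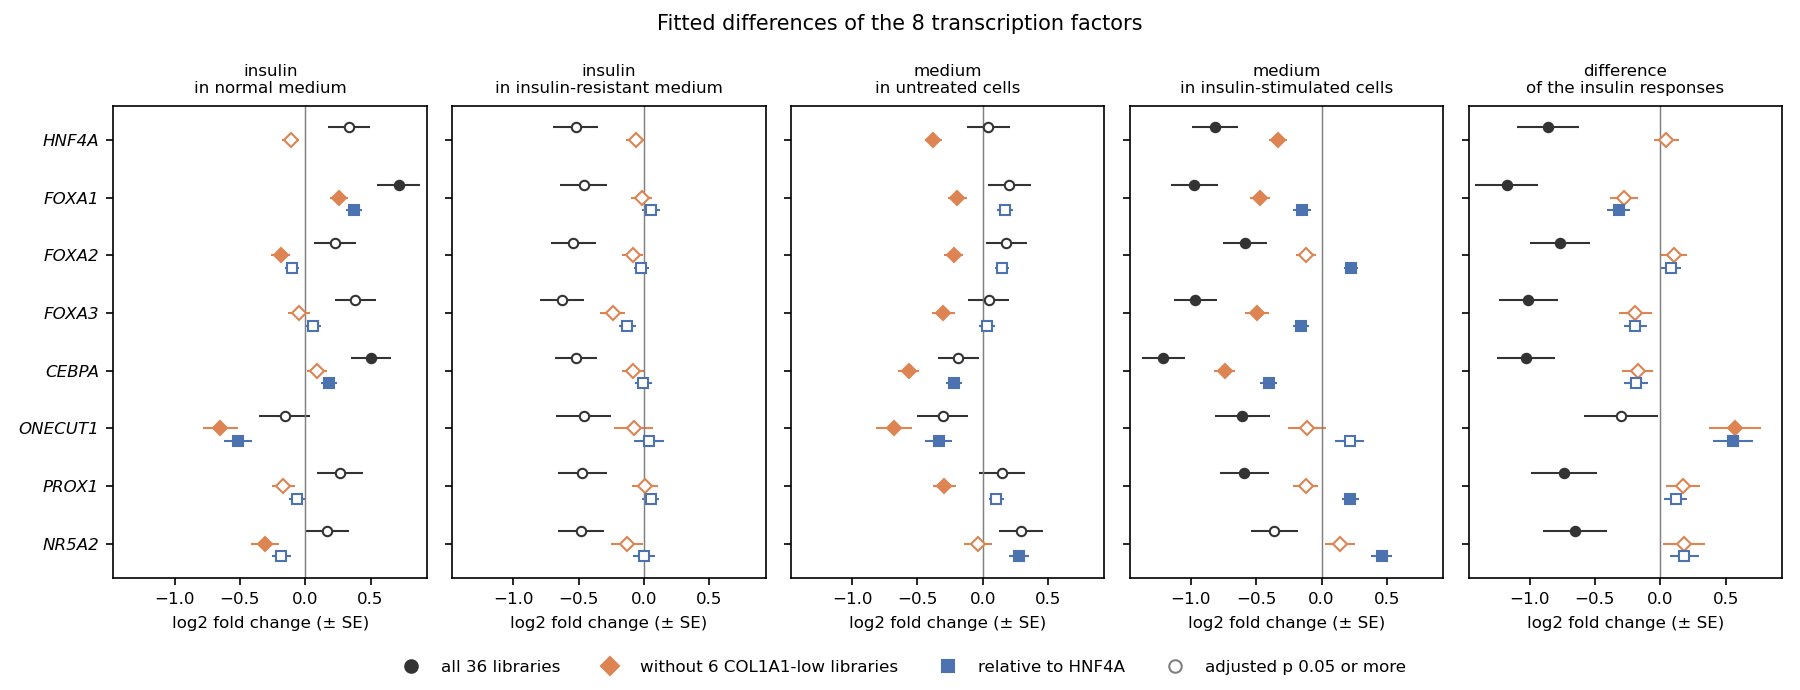
Log2 fold changes with SE (horizontal axis) of the 8 factors in the 5 comparisons, over all 36 libraries, without the 6 COL1A1-low libraries, and relative to HNF4A; filled symbols passed an adjusted p of 0.05. CEBPA is lower with resistant medium in stimulated cells on all 3 scales, at -1.21, -0.74 and -0.41.

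Relative to HNF4A, which was itself lower there, the factors split in stimulated cells, with CEBPA lower and NR5A2 higher against it. CEBPA was at 23.1, 26.8 and 27.7% of HNF4A in normal medium and at 18.2, 19.1 and 20.5% in resistant medium, with no overlap, a difference of -0.41 ± 0.06 (edgeR adjusted p = 6.2e-06). NR5A2 was at 1.47, 1.66 and 1.80% and at 2.18, 2.27 and 2.84%, also with no overlap, a difference of 0.46 ± 0.08 (adjusted p = 2.35e-05). FOXA2 (0.22, adjusted p = 0.00161) and PROX1 (0.22, adjusted p = 0.00536) were higher, and FOXA1 (-0.15, adjusted p = 0.0486) and FOXA3 (-0.16, adjusted p = 0.0351) lower. These 6 of 7 compare with 60.3% of all genes, most of them higher (58.2%), since the median gene was 0.66 higher on this scale. Only 2.16% of genes were called lower. NR5A2, FOXA2 and PROX1, though called higher, lay below that median gene.

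CEBPA and NR5A2 kept these differences without the COL1A1-low libraries, where neither gene's ranges overlapped and 53.4% of genes passed. The median gene was at 0.34 in that fit. Within the batches of 22 April and 11 April CEBPA was at -0.37 and -0.53 (adjusted p = 0.089 and 0.00616) and NR5A2 at 0.53 and 0.47 (adjusted p = 0.0571 in both). Over the 36 fits that left out 1 library, CEBPA ran from -0.42 to -0.38 and NR5A2 from 0.40 to 0.48, past the threshold in all. With each triplet summed to 1 sample, neither CEBPA nor NR5A2 passed. In the 36 fits without 1 library FOXA1 lost its call in 22 (-0.16 to -0.12), and FOXA3 in 5 (-0.15 to -0.14). The 5 were those without stimulated normal replicates 6 or 9 or stimulated resistant replicates 1, 3 or 5.

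Insulin after resistant medium left all 8 factors short of the threshold. The 8 estimates lay between -0.63 (FOXA3) and -0.46, with adjusted p of 0.0995 to 0.167 in edgeR, and 0 of the 17983 genes passed (0% of all genes). DESeq2 passed 89 genes, none of them 1 of the 8. At an unadjusted p under 0.05, 4490 genes and all 8 factors stood in that comparison. Without the COL1A1-low libraries, which all lay in the untreated arm here, the estimates were -0.24 to 0.01, with adjusted p of 0.915 or more, and relative to HNF4A they were -0.13 to 0.05, with 0 of 7 passing. With those libraries left out FOXA3 stood at 7.65 to 9.12% of HNF4A in untreated and 6.48 to 7.47% in stimulated resistant cells, with no overlap, and the fitted difference did not pass (-0.18 ± 0.07, adjusted p = 0.926). This comparison lay close to the threshold. Without the batch term 5 of the 8 passed as lower, and with only the 2 groups compared in the fit all 8 did. The share of all genes passing in these fits, and in the fits without 1 library below, is not given here. The counts are therefore not read as particular to the factors. Leaving out untreated resistant replicate 7 alone brought 7 of the 8 past the threshold, with FOXA3 at -0.70 (adjusted p = 0.0316), and leaving out replicate 9 brought HNF4A, FOXA2, FOXA3 and CEBPA past it (adjusted p = 0.0497 for each).

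The responses to insulin in the 2 media differed for 7 of 8 factors over all libraries, where the response in resistant medium was lower than that in normal medium. FOXA1 differed by -1.18 ± 0.24 (edgeR adjusted p = 0.00032), CEBPA by -1.03 (adjusted p = 0.000591), FOXA3 by -1.01 (adjusted p = 0.000806), HNF4A by -0.86 (adjusted p = 0.00572), FOXA2 by -0.77 (adjusted p = 0.0109), PROX1 by -0.74 (adjusted p = 0.0259) and NR5A2 by -0.65 (adjusted p = 0.0408). Over all genes 29.8% passed and 23.5% passed as lower. In fits that left out 1 library the NR5A2 call was lost in 30 of 36 (-0.74 to -0.45 over all 36) and the PROX1 call in 23 (-0.82 to -0.52 over all 36). HNF4A missed without stimulated normal replicate 6 or untreated resistant replicate 2 (-0.66 in both), and FOXA2 without stimulated normal replicates 5 or 6 or untreated resistant replicates 1, 2 or 3 (-0.60 to -0.57). With the COL1A1-low libraries left out, which fell in 1 arm of each response, ONECUT1 alone passed, in the other direction (0.57 ± 0.20, adjusted p = 0.0404), against 21.8% of genes. The 7 factors named above were then at -0.28 to 0.18, and none of them passed.

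Relative to HNF4A the responses of FOXA1 (-0.32 ± 0.09, edgeR adjusted p = 0.0114) and ONECUT1 (0.55 ± 0.15, adjusted p = 0.0101) differed between media, 2 of 7 against 20.3% of genes. The median gene was at 0.58 in that fit, so ONECUT1 lay near it and FOXA1 below it. Without the COL1A1-low libraries the median gene was at -0.03. FOXA1 stood at 8.06, 9.09 and 9.91% of HNF4A in untreated and 8.71, 9.05 and 10.5% in stimulated resistant cells, an estimate of 0.05 that did not pass, beside 0.37 in normal medium. ONECUT1 stood at 1.12, 1.46 and 1.74% and at 1.27, 1.43 and 1.61%. The same 2 genes passed without the COL1A1-low libraries (-0.32 and 0.54, against 17.0% of genes), and in every fit that left out 1 library. With each triplet summed to 1 sample neither passed (adjusted p = 0.531 and 0.411).

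Gene profiles nearest to each factor were found by the root mean square (RMS) difference of log2 values over the 36 libraries, each centred on its own mean, among 14071 genes. HNF4A was followed most closely by COBL (RMS 0.072), ETV4 (0.091) and DNMT3A (0.102), against an RMS of 0.433 of HNF4A around its own mean. FOXA1 lay nearest to ESRP2 (0.108), ATP7B (0.110) and SLC5A6 (0.121), and FOXA2 to MAPK8IP2 (0.090), GPR35 (0.092) and SLC39A4 (0.094). FOXA3 lay nearest to HNF4A itself (0.115), then ETV4 (0.118) and FGFR3 (0.129), the closest pairing among the 8 factors. CEBPA lay nearest to ARID3A (0.140), GPT (0.144) and F7 (0.147), and PROX1 to DOK6 (0.117), RAPGEF5 (0.126) and SHANK2 (0.128). NR5A2 lay nearest to SOX9 (0.131), CADPS2 (0.133) and SLC46A1 (0.137). ONECUT1 had the loosest neighbours, ITPR2 (0.152), SOBP (0.159) and SLC23A2 (0.177). All profiles share the libraries and so the COL1A1-low split.

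Of 21 other liver transcription factors, 5 were higher and 5 lower with insulin in normal medium over all libraries, against 35.2% of all genes called, with a median of 0.03, equal to that of all genes. CEBPB, a C/EBP factor of the acute phase, rose by 1.31 ± 0.13 (edgeR adjusted p = 3.76e-09) and the bile acid receptor NR1H4 by 1.14 ± 0.19 (adjusted p = 1.35e-05). CREB3L3, a membrane-bound factor of fasting lipid genes, fell by 1.28 ± 0.17 (adjusted p = 3.42e-07), and RXRA, the dimer partner of many nuclear receptors, fell by 0.42 ± 0.05 (adjusted p = 1.26e-07). Relative to HNF4A, 2 were higher and 9 lower, against 18.4% of all genes called, CEBPB at 1.02, NR1H4 at 0.80, CREB3L3 at -1.61 and NR0B2, a corepressor of NR5A2 and HNF4A, at -0.49.

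With resistant medium in untreated cells 2 of the 21 were higher and 5 lower, against 21.9% of all genes called. GATA6, a zinc finger factor of early endoderm, rose by 1.97 ± 0.14 (edgeR adjusted p = 7.33e-13) and NR0B2 by 0.90 ± 0.15 (adjusted p = 2.64e-05), whereas KLF15, a factor of amino acid catabolism in fasting, fell by 2.11 ± 0.19 (adjusted p = 1.53e-10) and RXRA by 0.45 ± 0.05 (adjusted p = 5.87e-08). In stimulated cells 2 were higher and 10 lower, against 38.3% of all genes called and 26.3% called lower, and KLF15 (-2.66), GATA6 (1.89), CEBPB (-1.52) and NR1H4 (-1.39) had the smallest p-values. Relative to HNF4A, 14 were higher and 4 lower in stimulated cells, where 58.2% of all genes were called higher and 2.16% lower and the median gene was at 0.66, so the share of higher ones is near the background. They included GATA6 at 2.59, KLF15 at -1.84, NR0B2 at 1.29 and CREB3L3 at 1.10. KLF15 and GATA6 kept their directions without the COL1A1-low libraries, at -2.15 and 2.01. With insulin after resistant medium none of the 21 passed. Between the 2 media, the response of CEBPB differed by -1.60 and that of RXRA by 0.51, among 5 higher and 7 lower, against 29.8% of all genes called.

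Of 14 coregulators, 8 were higher and none lower with insulin in normal medium, against 24.9% of all genes called higher, and relative to HNF4A 2 were higher and 2 lower, against 18.4% called. On that scale TLE1, a Groucho corepressor that binds FOXA proteins, was at 0.66 ± 0.05 (edgeR adjusted p = 1.44e-12) and the coactivator PPARGC1B at 0.86 ± 0.14 (adjusted p = 2.12e-05). PPARGC1A, the fasting coactivator of HNF4A, was at -1.28 ± 0.12 relative to HNF4A (adjusted p = 1.98e-10) with resistant medium in untreated cells. In stimulated cells 11 of the 14 were lower with resistant medium over all libraries, against 26.3% of all genes, and 5 without the COL1A1-low ones, against 18.2%.

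The 4 noncoding genes listed here lie beside the factors: PROX1-AS1 and HNF4A-AS1 on the opposite strand, CEBPA-DT divergent from CEBPA, and LINC00261 downstream of FOXA2. Whether the counting used strand is not given in the sources used here, so reads of an antisense gene and its partner may not be separated. PROX1-AS1 fell by 0.99 ± 0.21 with insulin in normal medium (edgeR adjusted p = 0.000289), while PROX1 itself was at 0.27. It was 1 of the 4 to pass, against 35.2% of all genes called. Without the 6 libraries 3 of the 4 passed as lower, against 33.4% of all genes called in either direction. They were PROX1-AS1 at -1.47, LINC00261 at -0.79 (edgeR adjusted p = 5.68e-10) and CEBPA-DT at -0.37 (adjusted p = 0.000533). LINC00261 (-0.36 over all libraries, adjusted p = 0.0978) passed in 25 of the 36 fits that left out 1 library, and its estimates over all 36 ran from -0.57 to -0.29. Relative to HNF4A, PROX1-AS1 was at -1.34 ± 0.13 (adjusted p = 3.01e-10), LINC00261 at -0.70 ± 0.06 (adjusted p = 9.45e-11) and CEBPA-DT at -0.30 ± 0.07 (adjusted p = 0.00172), while their neighbours PROX1, FOXA2 and CEBPA were at -0.07, -0.10 and 0.18 and the median gene at -0.17. With resistant medium in stimulated cells PROX1-AS1 was at 1.68 and LINC00261 at 0.94 relative to HNF4A, above the median gene at 0.66, and CEBPA-DT at 0.55, below it. Over all libraries without that scaling PROX1-AS1 was at 0.85 ± 0.22 (adjusted p = 0.00274) and HNF4A-AS1 at -0.999 ± 0.34 (adjusted p = 0.0193), and LINC00261 (0.12) and CEBPA-DT (-0.25) did not pass. The HNF4A-AS1 call was lost when the 6 COL1A1-low libraries were left out (-0.55, adjusted p = 0.165), and without stimulated normal replicate 6 or stimulated resistant replicates 1, 2, 6, 8 or 9 (-0.86 to -0.59).

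Of the documented targets of these factors 24 were tested, and this list overlaps that of the other factors, NR0B2 being in both. With insulin in normal medium 5 were higher and 5 lower, against 35.2% of all genes called, with a median of -0.03 against 0.03. G6PC1, the last enzyme of gluconeogenesis, fell by 5.09 ± 0.32 (edgeR adjusted p = 3.3e-13), and CYP8B1, the sterol hydroxylase that sets the cholic acid share, fell by 3.07 ± 0.33 (adjusted p = 1e-08). TTR and APOC3, secreted carrier proteins, each fell by 0.89. Relative to HNF4A 2 were higher and 16 lower, against 18.4% of all genes called and a median gene at -0.17, with G6PC1 at -5.44, CYP8B1 at -3.49, TTR at -1.21 and PCK1, which commits carbon to gluconeogenesis, at -1.20. HNF4A and 5 other factors had estimates of -0.16 to 0.38 in the same comparison, without the HNF4A scaling, and did not pass.

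With resistant medium in untreated cells 3 targets were higher and 9 lower, against 21.9% of all genes called, with a median of -0.23 against -0.04. G6PC1 (-4.37 ± 0.31, edgeR adjusted p = 8.33e-13), CYP7A1 (-1.83 ± 0.19, adjusted p = 6.99e-09), PCK1 (-1.30 ± 0.17, adjusted p = 6.24e-07) and the fibrinogen chain FGB (-1.09 ± 0.17, adjusted p = 1.32e-05) had the smallest p-values. CYP7A1 is the rate-limiting enzyme of bile acid synthesis and a target of NR5A2. Relative to HNF4A, CYP7A1 was at -1.88 and NR5A2 at 0.28 there. Without that scaling NR5A2 did not pass, at 0.20 to 0.34 over the fits that left out 1 library. It was at -0.036 without the COL1A1-low libraries. In stimulated cells 3 were higher and 15 lower, against 38.3% of all genes called and 26.3% called lower, with a median of -0.68, led by IGFBP1 (-2.55), TAT (-2.28), CYP7A1 (-1.83) and the clotting factor F7 (-1.20). With the COL1A1-low libraries left out 5 were higher and 10 lower, against 18.2% of all genes called lower. Relative to HNF4A 12 were higher and 6 lower, against 58.2% of all genes called higher and 2.16% lower. The responses to insulin differed between media for 10 targets over all libraries, G6PC1 by 4.68 ± 0.44 (adjusted p = 1.01e-08) and CYP8B1 by 2.68 ± 0.45 (adjusted p = 3e-05), 2 higher and 8 lower in all, against 29.8% of all genes called. Among the other 30 libraries that count was 14 higher and 1 lower, against 21.8% of all genes called. None of the 24 passed with insulin after resistant medium.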

How the data were processed

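The authors deposited expected counts per Ensembl gene, estimated read counts that need not be whole, for all 36 libraries. Per the labels' protocols, poly-A RNA was made into strand-specific libraries. The submitters' processing notes name STAR, Salmon and GRCh37; annotation, versions and counting settings: not given in the sources used here. Counts were rounded, since 15.5% of values were not whole. Symbols came from a GRCh38 table (51994 of 57771 genes matched).

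Groups came from the titles. The main test was edgeR 4.0.16 in R 4.3.3 (quasi-likelihood, TMM, filterByExpr, batch term, all 36 libraries, Benjamini-Hochberg over 17983 genes, threshold 0.05), tested on simulated data. The simulated counts held no batch effect, triplets or stromal split, so they do not check the test under those conditions. DESeq2 1.42.0, other filters, scalings, blocks, batches and left-out libraries were alternatives. Scaling to HNF4A was added after seeing the data. The 8 genes, lists and the 6 libraries set apart (COL1A1 below 10 CPM) were chosen with earlier results of these data known. Profiles used log2(TMM-scaled CPM + 0.5) of genes with a mean of at least 1 CPM. Named genes were the 8 factors, the 3 nearest profiles of each, and up to 4 genes per list and comparison with the smallest adjusted p. Lengths were merged exons of a GRCh38 annotation. Same-numbered untreated and stimulated libraries in normal medium deviated together (correlations of 0.20 to 0.52 over 9 pairs, median 0.39, against -0.13 for other pairs, with 2 of 9 closest to their own number). This pattern comes from the data, since the labels do not say what a number shares. Many of these same-numbered libraries also share a batch date, and the correlations were not adjusted for batch.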

Additional observations from a re-analysis of the deposited data

Results flagged for a closer look

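Of 60 sets of 9 libraries, 4 had a value far from the rest by Dixon's test, and chance alone gives about 1 in 20 sets. FOXA2 in stimulated resistant replicate 9 was at 35.3 TMM-scaled CPM, the highest of its group. FOXA2 in stimulated normal replicate 2 was at 20.1% of the HNF4A count, also the highest. That library was of the batch of 24 May. In that batch untreated normal replicates 4 to 6 were at 19.5 to 23.4% and untreated resistant replicates 4 to 6 at 22.2 to 24.8%. The COL1A1-low stimulated normal replicate 4 of that batch was at 16.7%. CEBPA in stimulated normal replicate 5, a COL1A1-low library, was at 23.1% of HNF4A, the lowest of its group, and PROX1 in untreated normal replicate 6 was at 25.5%, the lowest of its group.

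The responses to insulin differed between the 2 media by a test of that difference for 9 results. Over all libraries the differences (edgeR, resistant minus normal medium) were -0.86 for HNF4A, -1.18 for FOXA1, -0.77 for FOXA2, -1.01 for FOXA3, -1.03 for CEBPA, -0.74 for PROX1 and -0.65 for NR5A2. Relative to HNF4A they were -0.32 for FOXA1 and 0.55 for ONECUT1, with the median gene at 0.58.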

How the results depend on the processing

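The number of factors past the threshold depended on the processing in every comparison. The share of all genes passing also differs between fits and is given above for some of them only. The counts below are therefore not read as particular to the factors. With insulin in normal medium (2 passed) the count was 1 with every gene of at least 1 count tested, 0 with summed triplets, 4 without the COL1A1-low libraries, 0 within the batches of 22 April and 11 April, and 7 scaled to hepatocyte markers, with or without those libraries. With insulin in resistant medium (0) it was 5 without the batch term, 6 with the replicate block, 7 with a plate set term and 8 with only the groups compared. With resistant medium in untreated cells (0) it was 7 without the COL1A1-low libraries, and 7 scaled to hepatocyte markers, with or without them. In stimulated cells (7) it was 0 with summed triplets, 4 with only the groups compared, 4 without the COL1A1-low libraries, 0 within the batch of 22 April, 4 within that of 11 April, and 4 scaled to hepatocyte markers, with or without those libraries. For the difference of the responses (7) it was 4 with every gene, 0 with summed triplets, 1 without the COL1A1-low libraries and 0 within either batch. Relative to HNF4A the count for insulin in normal medium (3) was 0 with summed triplets and 1, 0 and 0 within the 3 batches; for resistant medium in untreated cells (3) it was 5 with DESeq2, 0 with every gene, 0 with summed triplets, 1 with only the groups compared, 5 without the COL1A1-low libraries and 0 within each batch; in stimulated cells (6) it was 0 with summed triplets and 0 and 1 within batches; for the difference (2) it was 1 with every gene, 0 with summed triplets and 0 within batches. Leaving out 1 library gave 1 to 3, 0 to 7, 0, 4 to 8 and 3 to 7 factors for the 5 comparisons as listed, and 2 to 3, 0, 2 to 5, 4 to 6 and 2 relative to HNF4A.

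Directions turned in these fits. Without the COL1A1-low libraries, insulin in normal medium gave FOXA2 -0.19, FOXA3 -0.048, HNF4A -0.11, NR5A2 -0.31 and PROX1 -0.17; resistant medium in untreated cells gave FOXA1 -0.19, FOXA2 -0.22, FOXA3 -0.30, HNF4A -0.38, NR5A2 -0.036 and PROX1 -0.30, and in stimulated cells NR5A2 0.14; the difference gave FOXA2 0.10, HNF4A 0.045, NR5A2 0.18, ONECUT1 0.57 and PROX1 0.17; insulin in resistant medium gave PROX1 0.0069. Scaled to hepatocyte markers, resistant medium in untreated cells gave CEBPA 0.18, ONECUT1 0.052 and RXRA 0.029, in stimulated cells FOXA2 0.13, NR5A2 0.36, ONECUT1 0.12 and PROX1 0.13, insulin in resistant medium FOXA1 0.037, ONECUT1 0.027 and PROX1 0.037, and the difference ONECUT1 0.071. With that scaling and without the 6 libraries these were CEBPA 0.17, ONECUT1 0.047 and RXRA 0.30, FOXA2 0.11, NR5A2 0.38, ONECUT1 0.14 and PROX1 0.12, FOXA1 0.056, HNF4A 0.0091, ONECUT1 0.000562 and PROX1 0.076, the difference ONECUT1 0.088, and RXRA 0.10 with insulin in normal medium. Within the batch of 24 May resistant medium gave FOXA1 -0.072, FOXA2 -0.14, FOXA3 -0.30, HNF4A -0.32, NR5A2 -0.028 and PROX1 -0.21, and insulin in normal medium ONECUT1 0.20 and, relative to HNF4A, FOXA3 -0.044 and PROX1 0.023. Within that of 22 April insulin in normal medium gave FOXA2 -0.017 and NR5A2 -0.051, and within that of 11 April CEBPA was 0.10 with resistant medium in untreated cells and FOXA2 -0.0056 for the difference relative to HNF4A. Over the fits that left out 1 library FOXA2 ran from -0.0034 to 0.29 and NR5A2 from -0.055 to 0.24 with insulin in normal medium, and FOXA3 from -0.059 to 0.10 and HNF4A from -0.077 to 0.10 with resistant medium in untreated cells. The cause was not tested. Over the alternatives that leave out no single library, 643 of the estimates for the 8 factors kept their direction and side of the threshold, 131 lost and 57 gained a pass, and 52 turned.

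Same-numbered libraries correlated positively in all 9 cases between the groups in normal medium only. Many of those libraries also share a batch date, so replicate number and batch were not separated. For insulin in normal medium the replicate block changed no call of the 8 factors. In the other 5 pairs of groups same-numbered libraries correlated at -0.84 to 0.77, with at least 1 of the 9 below -0.1 in each. The replicate block gave 2, 6, 0, 7 and 7 factors, and 3, 0, 3, 4 and 2 relative to HNF4A. The TMM scale rests on 1 reference library, and averaged over all references the insulin estimate of HNF4A in normal medium was 0.27. ONECUT1 and NR5A2, with medians of 154 and 225 counts, had the least depth. Counting error aside, 9 libraries in 3 triplets per group limit all estimates.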
